A study of Mus musculus with 8 samples.

Results

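The suppressors of cytokine signalling (SOCS) are intracellular proteins that cytokine receptors switch on and that in turn shut those receptors down. All 8 genes of the family in the mouse were described here, namely Socs1 to Socs7 and Cish, found by symbol among the 52636 genes of the count table. They were measured in 8 libraries of polyadenylated RNA from spleen and lymph node immune cells, in 4 groups of 2 defined by strain and sex. TCR1640 mice are SJL/J mice with a transgenic, myelin-specific T cell receptor, and they develop autoimmune encephalomyelitis spontaneously. SJL/J mice are the wild-type strain. The labels give no promoter for the transgene. The groups were TCR1640 males, TCR1640 females, SJL/J males and SJL/J females. In all 4 groups the mice were pre-symptomatic, between day 35 and day 55, and the cells were cultured for 4 days with anti-CD3 (1 μg/ml), IL-23 (20 ng/ml), TGF-β (4 ng/ml), IL-6 (20 ng/ml) and IL-12 (3 ng/ml), a TH1/TH17 stimulation. The labels name the cells only as immune cells, do not say how many mice gave a library, and include no unstimulated culture.

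Cytokine receptors of the JAK-STAT type activate JAK kinases, which phosphorylate STAT transcription factors, and STATs induce the SOCS genes that close the loop. Every SOCS protein has an SH2 domain that docks on phosphorylated tyrosines and a SOCS box that recruits elongins and the Cullin 5 ubiquitin ligase. SOCS1 and SOCS3 also carry a kinase inhibitory region that blocks JAK activity. In mouse T cells SOCS1 is known for limiting interferon gamma signals, SOCS3 for limiting IL-6 and IL-23 signals through STAT3, and CIS, the product of Cish, as a target of IL-2 and STAT5. SOCS2 is best known for damping the growth hormone receptor, and SOCS4, SOCS5 and SOCS6 for acting on receptor tyrosine kinases.

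The promoters of Cish, Socs3 and Socs1 are shown because these are the STAT-induced members of the family with the highest counts. The windows are RefSeq's on GRCm38.p6, from 250 bases before to 50 bases after RefSeq's gene start, and distances of matches are from that start. Such a window was matched for 4 of the 8 members. The Cish and Socs3 windows lie inside the gene bounds given further below, which come from GENCODE release M21. The motif TTCNNNGAA, the palindrome that STAT proteins bind, reads the same on both strands, and its matches are in capitals. The Cish window lies at chr9:107296409-107296708 on the plus strand, the Socs3 window at chr11:117969317-117969616 on the minus strand and the Socs1 window at chr16:10785487-10785786 on the minus strand.
Cish: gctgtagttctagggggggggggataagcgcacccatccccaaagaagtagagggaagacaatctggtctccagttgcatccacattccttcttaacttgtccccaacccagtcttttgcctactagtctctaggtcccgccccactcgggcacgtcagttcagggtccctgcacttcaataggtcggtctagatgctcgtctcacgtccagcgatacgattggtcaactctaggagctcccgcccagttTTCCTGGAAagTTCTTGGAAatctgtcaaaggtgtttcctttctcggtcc
Socs3: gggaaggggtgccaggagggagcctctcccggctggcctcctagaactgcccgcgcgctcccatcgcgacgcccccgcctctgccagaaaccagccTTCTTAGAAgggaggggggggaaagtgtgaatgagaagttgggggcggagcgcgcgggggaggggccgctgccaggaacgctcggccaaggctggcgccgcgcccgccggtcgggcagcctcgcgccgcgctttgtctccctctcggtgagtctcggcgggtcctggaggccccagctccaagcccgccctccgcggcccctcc
Socs1: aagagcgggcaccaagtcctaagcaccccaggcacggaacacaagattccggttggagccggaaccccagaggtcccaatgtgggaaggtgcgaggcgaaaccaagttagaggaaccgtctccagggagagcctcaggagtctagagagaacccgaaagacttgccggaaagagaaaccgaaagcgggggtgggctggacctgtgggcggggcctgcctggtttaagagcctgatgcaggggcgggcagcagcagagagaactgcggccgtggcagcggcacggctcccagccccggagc
The Cish window held 2 matches, TTCCTGGAA starting at the gene start and TTCTTGGAA starting 11 bases after it. The Socs3 window held 1, TTCTTAGAA, starting 154 bases upstream. The Socs1 and Socs4 windows held none. Over all 32851 windows of 300 bases, 8.3% held at least 1 match and 0.457% held 2 or more. A match is a run of letters and not a measured binding site.

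Within a group the 2 columns were nearly within sampling noise of each other (chi-square per degree of freedom 1.05 to 1.08, against 4.76 to 28.9 between groups). These chi-square values cover genes with at least 20 counts over the pair compared, and leave out the gene Gm43333. The 2 columns were therefore summed and counted as 1 sample, so each group has n = 1. All p-values measure only the spread between these samples, which may be technical. The summed samples held 7678860 to 10005975 counts. Y-linked genes matched the sex label in all 8 columns. T cell receptor segments went against the strain labels: Traj43 took 2.91% and 5.04% of alpha joining segment counts in the male and female libraries labelled TCR1640, against 79.2% and 75.6% in those labelled SJL/J. Strain names below stand for library labels only, and any strain direction given rests on labels at odds with these segments. The 6 T cell markers were present in every group, with summed levels of 1326 and 1235 CPM, the counts scaled to a common library size in TCR1640 males and females and 1042 and 960 CPM in SJL/J males and females. CPM was taken on TMM-scaled library sizes.

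Socs3 and Socs1, the members with a kinase inhibitory region, rose in the libraries labelled TCR1640, and Socs2 fell. Over both sexes Socs3 was 3.34-fold and Socs1 2.48-fold higher, and Socs2 stood at 0.420 of its SJL/J level. Cish, Socs4, Socs5, Socs6 and Socs7 did not pass the test. These values come from an additive edgeR model of the 4 summed samples, with n = 2 per strain label, 1 of each sex. Of all 17261 genes tested it called 26.5% at an adjusted p under 0.05, 13.4% higher and 13.1% lower, and all 8 members passed the filter on low counts. Of the 8 members 2 rose, 1 fell and 5 did not pass. The family median was a log2 change of 0.39, against 0.0096 over all genes tested. With 1 residual degree of freedom, the SE and p-values rest on how far the strain difference varied with sex, shared across genes, and no spread between mice enters them. In a mixed culture a lower share of the cells that express a gene and less of its RNA per cell cannot be told apart.

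Socs3 (ENSMUSG00000053113, chromosome 11, 117966079 to 117970047 on GRCm38, minus strand) had 296 and 284 CPM in the columns of TCR1640 males and 219 and 246 CPM in those of TCR1640 females. It had 79.8 and 76.9 CPM in the columns of SJL/J males and 78.5 and 77.2 CPM in those of SJL/J females. Every TCR1640 column lay above every SJL/J column, and the TCR1640 male columns lay above the TCR1640 female ones. For this and the other members, the share of all genes whose columns separate in this way was not counted. The 2 columns of a group count as 1 sample. The strain values of Socs3 follow. Its log2 change between strain labels was 1.74 (SE 0.13, edgeR adjusted p = 1.12e-39), higher in 2 of 2 sexes. The ratio of summed counts, on the log2 scale and with an exact 95% interval that covers counting error only, was 1.89 (1.77 to 2.02) in males and 1.58 (1.45 to 1.72) in females.

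Socs1 (ENSMUSG00000038037, chromosome 16, 10782240 to 10785536, minus strand) had 42.4 and 46.8 CPM in TCR1640 male columns, 35.6 and 40.4 CPM in TCR1640 female columns, 14.6 and 16.1 CPM in SJL/J male columns and 18.2 and 17.9 CPM in SJL/J female columns. As for Socs3 and with the same limits, the columns of the strain labels did not overlap. Its log2 change was 1.31 (SE 0.16, edgeR adjusted p = 1.39e-14), higher in 2 of 2 sexes. The log2 ratio was 1.54 (1.25 to 1.85) in males and 1.08 (0.79 to 1.37) in females. No annotated exon lies opposite the exons of Socs1 or Socs3 in GENCODE release M21, which does not settle which strand was counted.

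Socs2 (ENSMUSG00000020027, chromosome 10, 95385362 to 95417180, minus strand) was the member that moved the other way, at low counts. It had 10 and 9 counts in TCR1640 male columns and 13 and 19 in TCR1640 female columns, against 27 and 34 in SJL/J male columns and 21 and 30 in SJL/J female columns. With the limits given for Socs3, every TCR1640 column was lower than every SJL/J column, and the TCR1640 males were lowest. Its log2 change was -1.25 (SE 0.32, edgeR adjusted p = 0.000633), lower in 2 of 2 sexes. With DESeq2 the change was -1.28 and did not pass (adjusted p = 0.274). In males the log2 ratio was -2.02 (-2.85 to -1.26), and in females it was -0.57 (-1.26 to 0.10), an interval that includes equality.

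**Figure D1:**
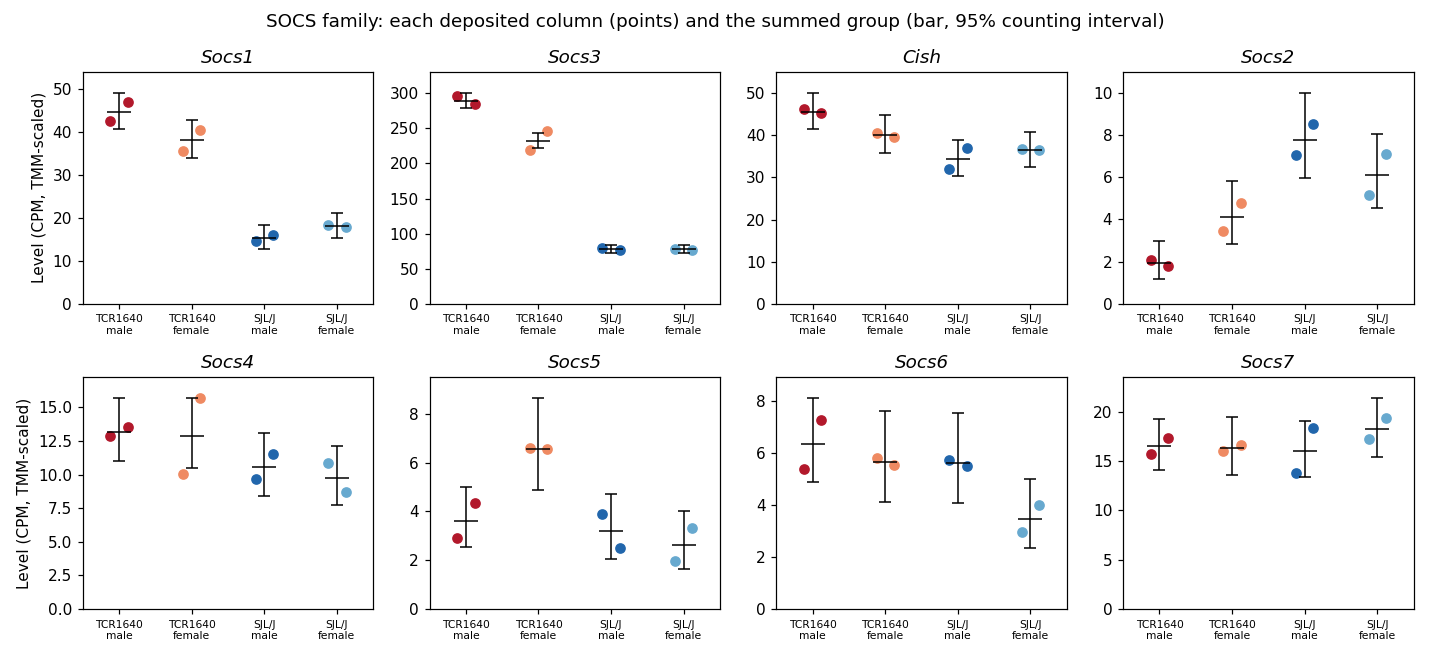
Level of each SOCS family gene (vertical axis, CPM on TMM-scaled library sizes) in the 4 groups. Points are the deposited columns, and bars are the summed group with its 95% counting interval. For Socs3, the TCR1640 columns lie between 219 and 296 CPM and the SJL/J columns between 76.9 and 79.8 CPM, and Socs2 runs the other way.

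Socs5 met a rule of size in females, and its test over both sexes missed the threshold. The rule asked for at least 1.5-fold, a counting interval that excludes equality and an average of at least 1 on the log2 CPM scale. Socs5 had 14 and 22 counts in TCR1640 male columns and 25 and 26 in TCR1640 female columns, against 15 and 10 in SJL/J male columns and 8 and 14 in SJL/J female columns. The TCR1640 female columns stood above all 6 others. The log2 ratio was 1.32 (0.57 to 2.11) in females and 0.19 (-0.59 to 0.98) in males. Over both sexes the log2 change was 0.77 (SE 0.34, edgeR adjusted p = 0.0823). It passed without TCR1640 male replicate 1 (0.92, adjusted p = 0.0456) or without SJL/J male replicate 1 (1.02, adjusted p = 0.0375).

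Socs4, Socs6 and Socs7 had strain log2 changes of 0.36 (SE 0.21), 0.41 (SE 0.30) and -0.06 (SE 0.18), with edgeR adjusted p = 0.202, 0.331 and 0.861. Socs7 had the narrowest span of group levels in the family, 0.18 on the log2 CPM scale, with 61 to 88 counts in TCR1640 columns and 53 to 82 in SJL/J columns. Socs4 had 38 to 69 counts in TCR1640 columns and 37 to 46 in SJL/J columns, and was the 1 member that met the whole rule of size between the columns of a group, TCR1640 females. Socs6 had 22 to 37 counts in TCR1640 columns and 12 to 22 in SJL/J columns. For all 3 the log2 counting intervals included equality in both sexes.

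By the same rule of size 3 members stood apart between strain labels in males (Socs3 and Socs1 higher, Socs2 lower), where 24.7% of 15733 genes did (12.2% higher, 12.5% lower). In females 3 stood apart (Socs3, Socs1 and Socs5, all higher), where 20.8% of genes did (10.3% higher, 10.5% lower). Between the 2 columns of a group the rule picked 2.03% to 2.22% of genes.

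**Figure D2:**
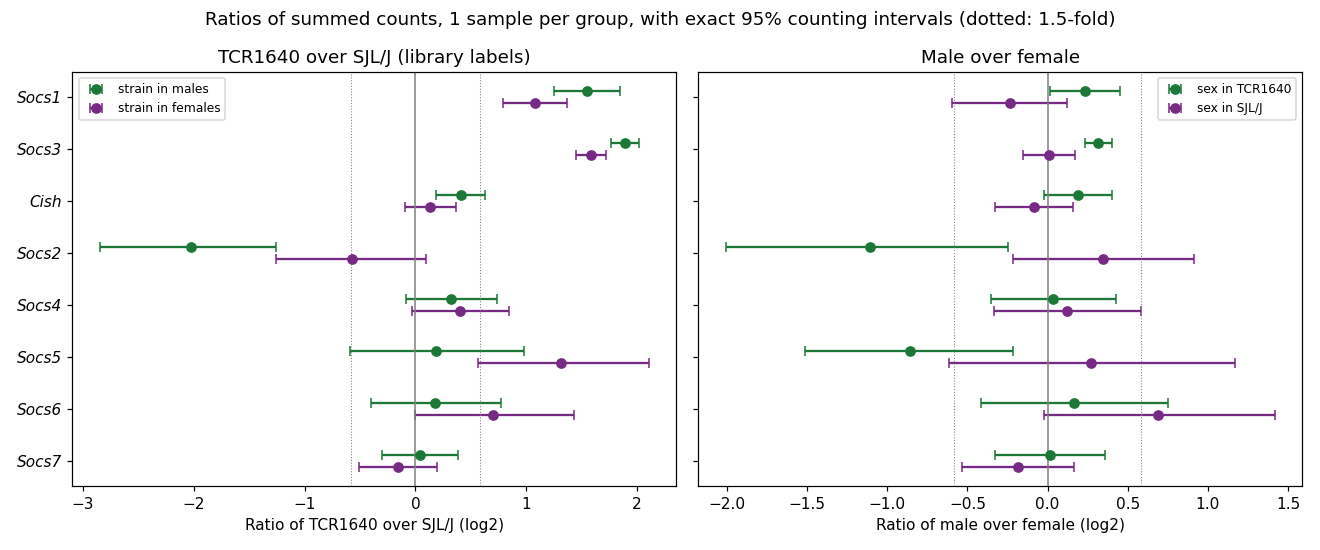
Log2 ratios of summed counts, TCR1640 over SJL/J on the left and male over female on the right, for each member. Bars are exact 95% counting intervals, with 1 sample per group. Dotted lines mark 1.5-fold. Socs1 and Socs3 lie right of the 1.5-fold line in both sexes on the left, and on the right Socs2 and Socs5 in TCR1640 lie left of it.

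Cish (ENSMUSG00000032578, chromosome 9, 107296026 to 107302784, plus strand) differed little between strain labels. It had 46.1 and 45.2 CPM in TCR1640 male columns, 40.6 and 39.6 CPM in TCR1640 female columns, 32.1 and 36.9 CPM in SJL/J male columns and 36.6 and 36.6 CPM in SJL/J female columns. With the limits given for Socs3, the columns of the strain labels did not overlap. The log2 change was 0.27 (SE 0.15) and missed the threshold (edgeR adjusted p = 0.166). The log2 ratio was 0.41 (0.19 to 0.63) in males and 0.13 (-0.10 to 0.37) in females.

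Cish is the member with annotated features on its opposite strand, and they held most of the counts at the locus. All 479 exonic bases of the antisense gene Gm17041 lie over Cish exons, and 261 of 1150 bases of the pseudogene Gm17040 do. Gm17041 had 8457 and 6677 counts in TCR1640 males and females and 4783 and 5799 in SJL/J males and females, where Cish itself had 453, 311, 270 and 304. The library kit keeps strand, and the strand setting of the counting is not given in the sources used here. Across the table, 899 coding genes and noncoding features lie opposite each other with at least 200 counts each, and in 77.5% of these pairs (exact 95% interval 74.7 to 80.2) more counts fell on the noncoding one. Reads of Cish and of the features opposite to it may therefore not be told apart, and the level of Cish is uncertain. If the counting took the strand opposite to the kit's, the counts of all 8 members, Socs3, Socs1 and Socs2 included, would be reads of the other strand, and their counts, levels and shares would not measure their mRNA. This was not tested.

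The opposite features rose in the libraries labelled TCR1640. The log2 change was 0.39 for Gm17041 (SE 0.11, edgeR adjusted p = 0.00273) and 0.67 for Gm17040 (SE 0.12, edgeR adjusted p = 1.59e-06), both higher in 2 of 2 sexes. Gm17041 did not pass with DESeq2 (adjusted p = 0.0696). With the counts of both features added to its own, Cish had a log2 change of 0.43 and passed (edgeR adjusted p = 0.000712). For the other 7 members the table holds no feature opposite to their exons.

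**Figure D3:**
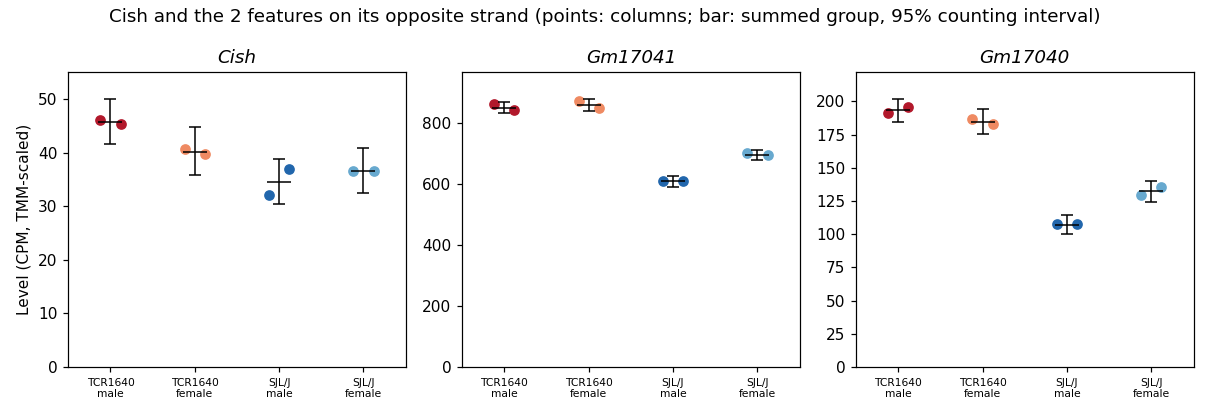
Level (vertical axes, CPM, each panel on its own scale) of Cish and of the 2 features on its opposite strand in the 4 groups, with columns as points and summed groups as bars with 95% counting intervals. Gm17041 lies at 843 to 872 CPM in TCR1640 columns and 612 to 702 CPM in SJL/J columns, far above Cish at 39.6 to 46.1 and 32.1 to 36.9 CPM.

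In the counts as deposited and per length of exon, Socs3 had the highest level of the family in all 4 groups. Its level was 100.2 and 80.4 RPKM (CPM per kilobase of exon) in TCR1640 males and females and 27.0 and 26.8 RPKM in SJL/J males and females. Socs1 followed with 15.3 and 13.1 RPKM in TCR1640 males and females. In SJL/J males and females it stood at 5.26 and 6.19 RPKM, and Cish at 5.36 and 5.69 RPKM, so that Socs1 and Cish did not differ beyond their counting intervals there. In the libraries labelled TCR1640 Cish was lower than Socs1, at 7.11 and 6.24 RPKM. That order rests on the annotated exon lengths, 6419 bases for Cish and 2908 for Socs1. In CPM Cish had 45.6 and 40.1 and Socs1 44.6 and 38.0 in TCR1640 males and females. The place of Cish also depends on which strand was counted, which was not tested. Socs7 and Socs4 came next, at 2.21 to 2.51 and 1.41 to 1.92 RPKM over the groups. Socs2, Socs5 and Socs6 were lowest, at 0.201 to 1.02 RPKM.

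The make-up of the family differed between strain labels. Socs3 gave 78.2% and 76.0% of the summed RPKM of the 8 genes in TCR1640 males and females, and 62.5% and 61.0% in SJL/J males and females. The share of Cish was 5.55% and 5.90% in TCR1640 males and females and 12.4% and 12.9% in SJL/J males and females. Its level was not lower under the TCR1640 label, at 7.11 and 6.24 RPKM against 5.36 and 5.69 RPKM in the same order. The share of Socs2 was 0.157% and 0.409% in TCR1640 males and females and 1.89% and 1.46% in SJL/J males and females. These shares are descriptions with no test, and they rest on the annotated exon lengths and on the strand that was counted.

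**Figure D4:**
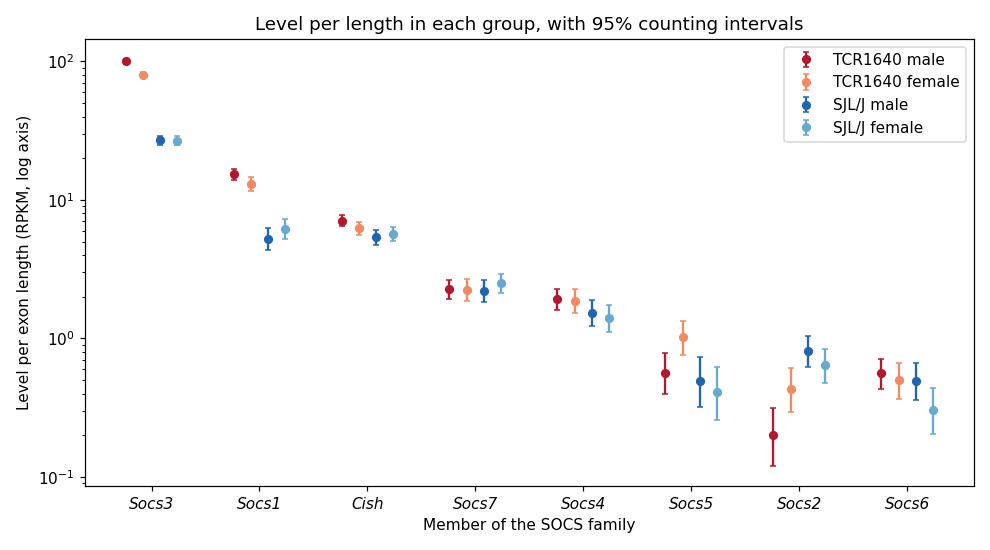
Level per exon length (vertical log axis, RPKM) of each member in each group, with 95% counting intervals. In the counts as deposited, Socs3 lies highest in every group, at 26.8 to 100.2 RPKM. Socs2 is lowest in TCR1640 males, at 0.201 RPKM.

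No member passed the test between males and females over both strains. All 8 missed the edgeR threshold (adjusted p from 0.74 to 0.978), 0 had an unadjusted p under 0.05, and DESeq2 called 0. The model called 1.1% of 17261 genes here, 0.139% higher and 0.962% lower in males. The family median was a log2 change of 0.047, against 0.0025 over all genes tested. Socs3 had a male over female log2 change of 0.17 (SE 0.12), Socs1 of 0.04 (SE 0.16), Cish of 0.06 (SE 0.15) and Socs2 of -0.21 (SE 0.31).

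In the libraries labelled TCR1640, Socs2 and Socs5 stood apart between the sexes by the rule of size, both lower in the male, where 7.78% of genes did (2.63% higher, 5.15% lower). Socs2 had 19 counts in the male and 32 in the female, a log2 ratio of -1.11 (-2.01 to -0.24). Socs5 had 36 and 51, a log2 ratio of -0.86 (-1.52 to -0.21). Leaving out a column changed this count: Socs5 no longer met the rule without TCR1640 male replicate 1, and Socs2 no longer did without TCR1640 male replicate 2 or without TCR1640 female replicate 2, which left 1 of the 2 each time. Socs3 had a smaller ratio of 0.32 (0.23 to 0.40) and Socs1 of 0.23 (0.02 to 0.45), both below 1.5-fold with intervals that exclude equality.

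In the libraries labelled SJL/J 0 members stood apart between the sexes, where 6.69% of genes did (2.86% higher, 3.83% lower). Socs3 had a male over female log2 ratio of 0.01 (-0.15 to 0.17) from 612 and 646 counts, and Socs1 of -0.24 (-0.59 to 0.12). Socs6 had the ratio farthest from equality, 0.69 (-0.02 to 1.42), from 44 and 29 counts. An edgeR test over the 8 columns of whether the sex ratio differed between strain labels called 2 of the 8 members, Socs2 and Socs3, and 10.2% of 15793 genes. It takes the 2 columns of a group as separate samples, so it compares libraries and not mice. With the columns summed, this difference is the residual of the model and was not tested.

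The rest of the pathway was read in the same edgeR fit between strain labels. Beside the counts of each list here and below, that fit called 26.5% of 17261 genes, 13.4% higher and 13.1% lower. Of 10 JAK and STAT genes 2 rose and 8 did not pass, with a median log2 change of 0.25. Jak1, a kinase shared by many cytokine receptors, rose by 0.84 but overlaps Raver2, and Stat2 rose by 0.50. Stat3, whose exons overlap Stat5a, had a change of -0.06 (adjusted p = 0.757 in edgeR). Of the 13 other attenuators of cytokine signals 7 rose, 1 fell and 5 did not pass (median 0.41). Among them Ptprc, the phosphatase CD45, rose by 1.06, Sh2b3 by 0.98 (overlapping Atxn2) and Usp18 by 0.62 (overlapping Gm44148). Ptpn2, a phosphatase of JAK1 and STATs, fell by 0.41. DESeq2 called fewer, 1 of the 2 JAK and STAT genes (Jak1) and 1 of the 8 attenuators (Ptprc).

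The ubiquitin ligase that the SOCS box recruits showed no called gene in the tests between strain labels. By the rule of size, 2 of its 6 genes were lower in TCR1640 than in SJL/J males, where 12.5% of 15733 genes were. In females 0 stood apart, where 20.8% of genes did. Of the 6 Elongin and Cullin 5 partners 0 passed in edgeR (0 at an unadjusted p under 0.05, 0 with DESeq2), with log2 changes of -0.44 (Ube2f) to 0.13 (Cul5) and a median of -0.14. Of 13 other SOCS box genes tested 1 rose and 2 fell (median 0.12), namely Rab40c by 0.66, Spsb2 at -0.82 and Wsb2 at -0.56, which all overlap a gene on the other strand. With DESeq2 Spsb2 passed, and Rab40c and Wsb2 did not.

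Receptors and ligands that act upstream moved in both directions. Of 12 genes of the IL-6, IL-10, IL-21 and IL-23 list 8 rose and 3 fell (median 0.71). Il6ra, the IL-6 receptor, rose by 1.30 (overlapping Gm42809), Il10rb by 1.30 and Il10 by 1.18, while Il23r fell by 1.42, Lif fell by 0.47 and Il6 fell by 3.85 at low counts. Of 10 common gamma and beta chain genes tested 1 rose and 5 fell (median -0.36), with Il2rg at 0.42, Il2ra at -1.02, Csf2rb at -3.81 and Csf2rb2 at -3.95. Of 7 interferon and IL-12 genes 2 rose, Ifngr2 by 0.92 and Ifnar1 by 0.59, and 5 did not pass (median 0.27). DESeq2 called 7 of the 11 genes edgeR called in the IL-6 list (not Il10rb or Lif among those named), 3 of the 6 gamma and beta chain genes (not Il2rg) and 0 of the 2 interferon and IL-12 genes. The edgeR test between sexes called 1.1% of 17261 genes. In that test Il10 rose in males by 0.63 (edgeR adjusted p = 0.0214), Il6ra fell by 0.52 (edgeR adjusted p = 0.0383), and no other gene of the pathway lists passed. DESeq2 called neither.

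Genes downstream of the STATs were called in both directions. Of 14 interferon-induced genes tested 5 rose, 2 fell and 7 did not pass (median 0.25). Irf1 rose by 0.82 (overlapping Gm17334), Irgm1 by 0.62 and Ifit3 by 2.65 at low counts, and Gbp7 fell by 0.37 and Cxcl10 fell by 1.55 (overlapping Art3, at low counts). Of 8 IL-2-STAT5 induced genes 2 rose and 2 fell (median -0.12), Pim2 by 0.79, Bcl2 by 0.68 (overlapping D630008O14Rik), Il2ra at -1.02 and Bcl2l1 at -0.68. Of 11 STAT3 and Th17 genes 9 fell and 2 rose (median -0.60). Il17a fell by 1.42 and Il17f fell by 1.24, and Il21 rose by 0.74 and Bcl3 by 0.51, which overlap Gm12534 and Gm16175. DESeq2 called 1 of the 7 interferon-induced genes that edgeR called (Irf1), 3 of the 4 IL-2-STAT5 genes (not Bcl2l1) and 6 of the 11 STAT3 and Th17 genes (not Bcl3 among those named).

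**Figure D5:**
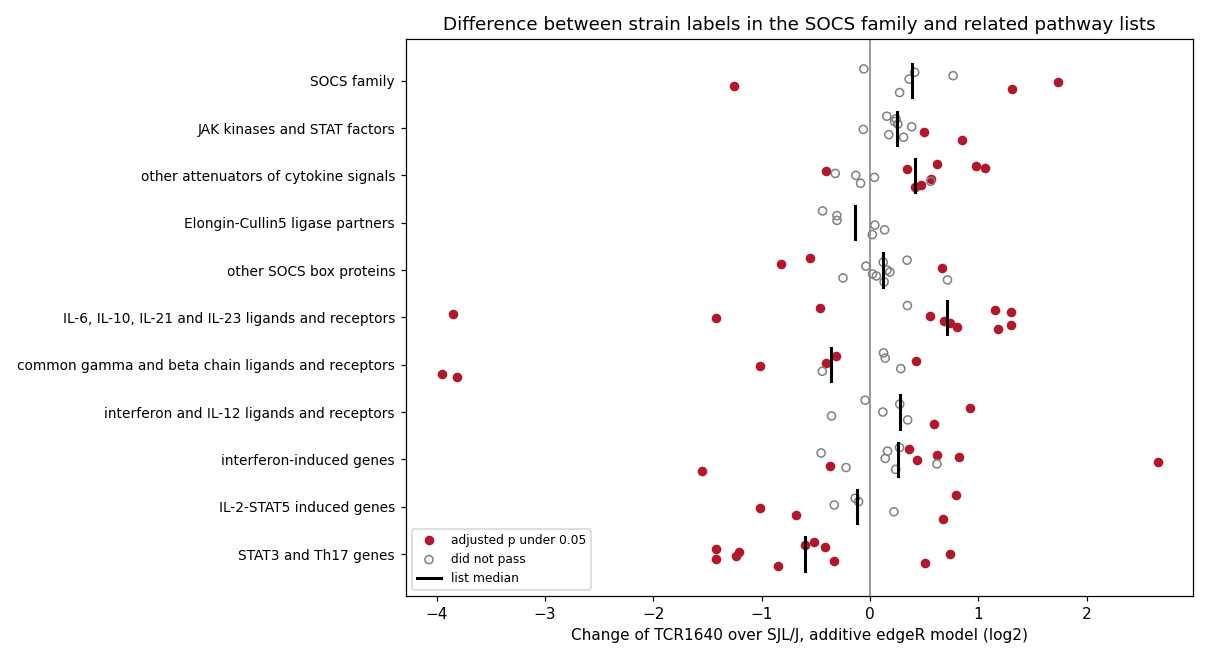
Log2 change of TCR1640 over SJL/J (horizontal axis) of each tested gene of the SOCS family and of 10 pathway lists, from the additive edgeR model of 4 summed samples. Filled points passed at an adjusted p under 0.05, open points did not, and black bars are list medians. Socs3 (1.74) and Socs1 (1.31) lie at the upper end of the family row, and the STAT3 and Th17 genes lie mostly below 0.

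Markers of other cell types and states moved with the strain label beside the SOCS genes. The 6 naive T cell markers had summed levels of 1066 and 1039 CPM in TCR1640 males and females and 306 and 318 CPM in SJL/J males and females. Cd8a stood at 171 and 156 CPM in TCR1640 males and females and 27.7 and 23.2 CPM in SJL/J males and females. Cd4 ran the other way, at 170 and 160 CPM in TCR1640 males and females and 238 and 236 CPM in SJL/J males and females, and fell by 0.52 on the log2 scale (edgeR adjusted p = 0.000191). The 8 neutrophil markers summed to 2.52 and 5.93 CPM in TCR1640 males and females, with S100a8 and Elane at 0 in both, and to 152 and 58.6 CPM in SJL/J males and females. The 7 mast cell and basophil markers summed to 18.8 and 17.0 CPM against 105 and 90.2 CPM, and the 7 platelet and red cell markers to 26.4 and 28.1 CPM, with Ppbp at 0 in both, against 276 and 156 CPM, in the same order of groups. In the last list the 4 called genes, Pf4, Ppbp, Itga2b and Gp9, are platelet genes. The hemoglobin genes Hba-a1 and Hbb-bs had log2 changes of -0.06 and -0.31 and did not pass (edgeR adjusted p = 0.883 and 0.356). The 7 monocyte and macrophage markers summed to 136 and 136 CPM in TCR1640 males and females and 128 and 130 CPM in SJL/J males and females, and the 6 B cell markers to 46.5 and 44.6 CPM against 34.2 and 28.6 CPM. Most of the monocyte and macrophage sum was Csf1r, whose exons overlap Hmgxb3, at 133 and 130 CPM in TCR1640 males and females and 114 and 120 CPM in SJL/J males and females. Lyz2 of the same list fell by 4.39 on the log2 scale (edgeR adjusted p = 4.66e-15), with 0.20 and 0.39 CPM in TCR1640 males and females and 7.78 and 4.56 CPM in SJL/J males and females. Between the sexes edgeR called 0.139% of 17261 genes higher in males. Of the markers tested, 3 of 7 for neutrophils and 3 of 6 for platelets and red cells rose in males by edgeR and 0 with DESeq2. The part of these cells in the SOCS differences was not tested.

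The genes whose levels over the 4 summed samples ran closest to a member were found by Euclidean distance between centred log2 CPM profiles, among 10480 genes. This was done for the 4 members whose groups spanned at least 1 on the log2 CPM scale. Closest to Socs3 were Gm9889 (distance 0.16), Gm10640 (0.18) and Ccr7 (0.18), and closest to Socs1 were Trio (0.017), Gprasp1 (0.086) and Foxp1 (0.11). Closest to Socs2 were Thsd7b (0.18), Gm29054 (0.20) and Gm48840 (0.20), and closest to Socs5 were Gvin1 (0.075), Cd96 (0.11) and Gzma (0.15). Ccr7, a homing receptor of naive T cells, had 157 and 138 CPM in TCR1640 males and females and 48.5 and 49.7 CPM in SJL/J males and females. With 4 points such a likeness is a description only.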

How the data were processed

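The deposited table holds raw whole-number counts for Ensembl gene identifiers in 8 columns. Per the submitters' processing notes, the tools were HTSeq, Bowtie2 and bcl2fastq 2.17, and the build was mm10. The labels' protocols name a stranded KAPA mRNA kit used on 500 ng of RNA. For the annotation release and the HTSeq strand option, the entry is: not given in the sources used here. Symbols, positions and exon lengths came from GENCODE M21 on GRCm38, and 147 identifiers were not in it. Columns were matched to samples by title.

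The members and lists were chosen with earlier results of these data known, and 1 gene of the JAK and STAT list is not reported here. The 2 columns of a group were summed. edgeR 4.0.16 under R 4.3.3 fitted strain and sex to the 4 summed samples (1 residual degree of freedom), with TMM scaling, filterByExpr, the quasi-likelihood F test and Benjamini-Hochberg adjustment over all genes tested. SEs were obtained by dividing the log2 change by the root of its F value. CPM and RPKM use TMM-scaled library sizes. Intervals of ratios are exact binomial and those of levels exact Poisson. Those of the difference of sex ratios between strain labels are a normal approximation from the counts. All cover counting error only. Per pathway list and test, up to 3 called genes in each direction with the largest change are named. Alternatives were other scalings and filters, DESeq2 1.42.0, 8 columns as samples with and without the replicate number as a block, and leaving out each column. The fit was tested on simulated data. Promoter windows came from RefSeq.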

Additional observations from a re-analysis of the deposited data

Results flagged for a closer look

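The sex difference of Socs2 differed between strain labels in a fit of the 8 columns. The male over female log2 ratio of Socs2 was -1.11 in the libraries labelled TCR1640 and 0.34 in those labelled SJL/J, a difference of -1.45 (95% interval from counting error -2.43 to -0.47). The edgeR test of this difference over 8 columns gave adjusted p = 0.0405. Counts were low, at 19 and 32 in TCR1640 males and females and 61 and 51 in SJL/J males and females.

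For Socs3 the male over female log2 ratio was 0.32 in the libraries labelled TCR1640 and 0.01 in those labelled SJL/J, a difference of 0.31 (0.13 to 0.49, edgeR adjusted p = 0.0128 over 8 columns). Both tests treat the 2 columns of a group as separate samples, which differ by little more than sampling noise, so they compare libraries and not mice. This test called 10.2% of the 15793 genes it covered. For the other 6 members the same test missed the threshold (adjusted p from 0.173 to 0.907 in edgeR). Among these, the counting interval of the difference also excluded equality for Socs1 (0.47, 0.06 to 0.87) and Socs5 (-1.13, -2.16 to -0.10).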

How the results depend on the processing

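Socs1 and Socs3 stayed called between strain labels under every alternative tried, with log2 changes of 1.26 to 1.36 and 1.70 to 1.78 when columns were left out. Socs2 stayed called except with DESeq2 (adjusted p = 0.274). Replicate numbers were no strong pairing: deviations of same-numbered columns correlated weakly but positively across genes, at 0.039 to 0.083. With 8 columns as samples the strain test called 6 members, with or without the replicate block, adding Socs4, Socs5 and Cish. Of the 15793 genes in that fit it called 7857 with and 7821 without the block, in place of 4572 of 17261. The sex test then called 1 member, Socs3, and 2875 and 2759 of the same 15793 genes, in place of 190 of 17261. DESeq2 called 1339 genes between strain labels and 6 between sexes. Upper-quartile factors gave 108 for sex and no filter 118.

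Leaving out 1 column gave 8 (without TCR1640 male replicate 2) to 143 genes for sex, 3553 to 4330 for strain labels, 3 to 4 members for strain labels and 1 to 2 for sex in TCR1640. For strain labels in females it gave 3 to 4, adding Socs4 without TCR1640 female replicate 1, Socs2 without SJL/J female replicate 1 or Socs6 without SJL/J female replicate 2. A 2-fold rule left 1 member for sex in TCR1640. In the tests over both sexes or both strains, the changes that turned their sign were uncalled: sex in Socs1 (-0.0015 without and -0.0016 with the replicate block, -0.023 to 0.081 leaving out columns), sex in Cish with opposite features added (-0.097), sex in Socs4 (-0.062 to 0.25) and Socs7 (-0.15 to 0.0046), and strain in Socs7 (-0.15 to 0.013). Of the 32 member ratios between single groups 10 turned their sign, to values of -0.24 to 0.0044, and the main intervals of all 10 included equality. These were Socs5, Socs6 and Socs7 for strain in males, Socs4, Socs6 and Socs7 for sex in TCR1640 and Socs3, Socs4, Socs5 and Cish for sex in SJL/J. The cause was not tested. Depth limits Socs2, Socs5 and Socs6, which had 8 to 37 counts per column.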
